A study of Mus musculus with 6 samples.

Results

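The 10 miRNAs described here belong to the miR-302/miR-367 cluster and the miR-290 cluster, which are the miRNA clusters of mouse embryonic stem cells and the early embryo. They were chosen by name, as the rows called mmu-miR-302a-3p, mmu-miR-302b-3p, mmu-miR-302c-3p, mmu-miR-302d-3p, mmu-miR-367-3p, mmu-miR-290a-5p, mmu-miR-291a-3p, mmu-miR-292a-3p, mmu-miR-294-3p and mmu-miR-295-3p, out of 1915 mature miRNAs in the count files, by a rule that uses no measured value. Small RNA was sequenced from the whole brain of wild-type C57BL/6 mouse embryos collected on E15.5, and the 6 libraries are 3 from females and 3 from males. The RNA of each library was pooled from 2 to 3 individuals, whose sex was read from the presence or absence of testicular cords. No treatment or mutation separates the libraries, so that sex is the only contrast, and an adjusted p-value here measures the spread between pools and not between embryos.

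miRNAs are short RNAs that guide silencing complexes to messenger RNAs, mainly through bases 2 to 8 of the mature strand, called the seed. The miR-290 cluster is expressed in embryonic stem cells and in the embryo before and around implantation, and the miR-302/miR-367 cluster is expressed slightly later, in the epiblast and in primed pluripotent cells. Several of these miRNAs promote the rapid cell cycle of embryonic stem cells, partly by repressing inhibitors of the G1 to S transition, and both clusters are silenced as cells differentiate. Each hairpin of a cluster is cut into a 5p and a 3p strand, either of which can be kept as the mature miRNA.

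Mature sequences from RefSeq (GRCm38.p6) were matched by name for 8 of the 10 miRNAs, and they are shown because the seed is what relates these miRNAs to each other and to abundant miRNAs of the brain. Sequences run 5′ to 3′, and the capitals mark bases 2 to 8. The miRNAs of the miR-302/miR-367 cluster were:
mmu-miR-302b-3p: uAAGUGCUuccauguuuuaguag
mmu-miR-302c-3p: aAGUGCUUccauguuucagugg
mmu-miR-302d-3p: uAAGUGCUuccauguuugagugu
mmu-miR-367-3p: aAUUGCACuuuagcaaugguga
The miRNAs of the miR-290 cluster were:
mmu-miR-290a-5p: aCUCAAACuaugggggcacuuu
mmu-miR-291a-3p: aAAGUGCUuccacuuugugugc
mmu-miR-294-3p: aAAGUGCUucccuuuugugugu
mmu-miR-295-3p: aAAGUGCUacuacuuuugagucu
Outside both clusters, the most abundant miRNA with the seed of miR-367-3p, and a pair from the miR-17 family that hold part of the miR-302 seed one base further along, were:
mmu-miR-92a-3p: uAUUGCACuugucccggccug
mmu-miR-93-5p: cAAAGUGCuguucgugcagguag
mmu-miR-17-5p: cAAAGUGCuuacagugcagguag

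The seed AAGUGCU was shared by miR-302b-3p, miR-302d-3p, miR-291a-3p, miR-294-3p and miR-295-3p, and so joined 2 clusters that lie on different chromosomes. The mature form of miR-302c-3p starts 1 base further in, which gave it the seed AGUGCUU. miR-302b-3p, miR-302c-3p and miR-302d-3p differed from each other by 3 bases in an ungapped alignment with a shift of up to 2 bases, and miR-291a-3p differed from miR-294-3p by 3 bases. Reads with mismatches could therefore be shared within these sets. The nearest miRNA with a mean level of at least 100 CPM (reads scaled to a library total of 1000000) was at least 8 differences away for each of the 8 sequences.

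In the mm9 assembly (NCBIM37, with GENCODE vM1 genes), the 5 hairpins of the miR-302/miR-367 cluster lie within 580 bases of chromosome 3, at chr3:127248146-127248725, in the order Mir302b, Mir302c, Mir302a, Mir302d and Mir367. They are on the plus strand, inside an intron of Larp7, which is transcribed from the minus strand. The 7 hairpins of the miR-290 cluster, Mir290, Mir291a, Mir292, Mir291b, Mir293, Mir294 and Mir295, lie within 2216 bases of chromosome 7, at chr7:3218627-3220842. They are on the plus strand and overlap no annotated gene, and Mir295 ends 668 bases from the nearest protein-coding gene, Nlrp12.

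Library totals ranged from 14802675 to 59362011 reads on miRNAs, and between 660 and 915 miRNAs had at least 1 read. Levels are given as CPM, taken over all miRNA reads, and since the protocol names no molecular identifiers, the 95% Clopper-Pearson intervals and the limits for 0 reads cover counting error only. Female library 2 stood apart, with the highest total and the fewest miRNAs detected, and its 10th percentile of reads over detected miRNAs was 137.7, against 11 to 21 in the other libraries. Values that move without it are given beside the result. All 8 miRNAs of a list for brain had reads in every library, from miR-9-5p, which is abundant in neural progenitors, at a mean of 173324 CPM to miR-219a-5p, an oligodendrocyte miRNA, at 7.67 CPM. Of a list of 14 miRNAs for other cells, 11 had reads in at least 1 library, and miR-126a-3p of endothelium was highest at a mean of 4174 CPM. miR-741-3p, of testis germ cells, had 22 reads in 1 library, miR-743a-3p had none, and miR-208a-3p and miR-208b-3p of the heart had none.

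Reads of the stem cell miRNAs were few in every library. The 10 miRNAs together took 27.8, 11.6 and 27.4 CPM in female libraries 1, 2 and 3 and 8.99, 12.8 and 9.86 CPM in male libraries 1, 2 and 3. miR-9-5p alone was between 7008-fold and 17728-fold higher than all 10 together. The female mean was 22.3 ± 9.23 CPM and the male mean 10.6 ± 2.01 CPM (SD, n = 3 for both). Female library 2 fell among the male libraries, and without it the female mean was 27.6 CPM. In these bulk samples, fewer cells that express a miRNA and less of the miRNA in each cell cannot be told apart.

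**Figure D1:**
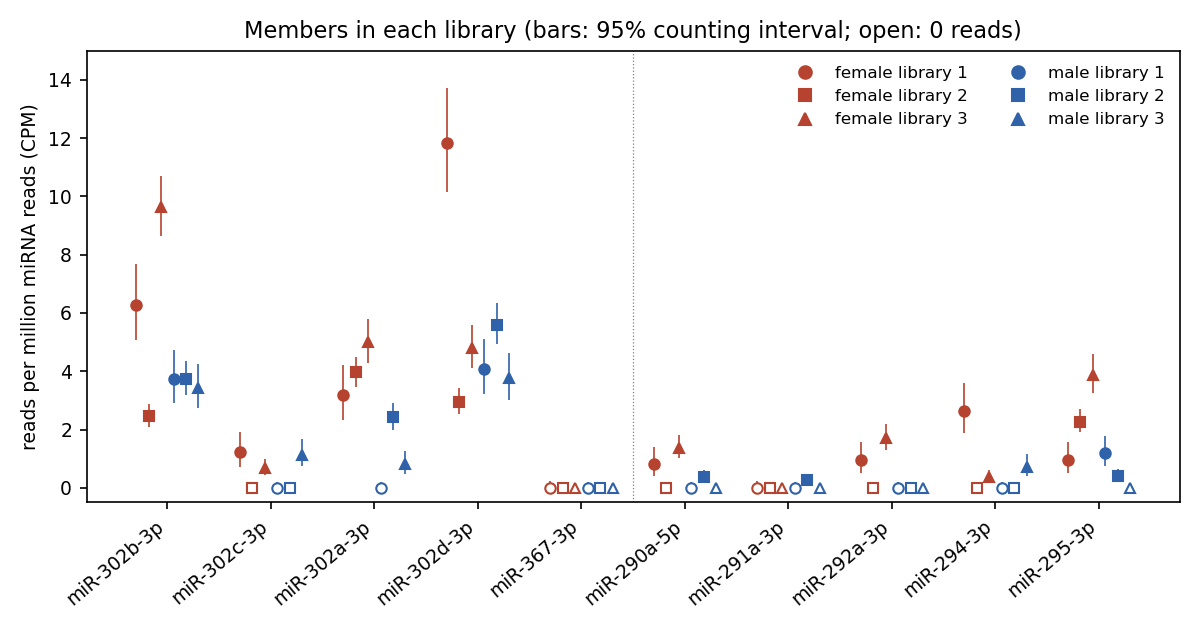
CPM (vertical axis) of the 10 miRNAs in each of the 6 libraries, with the miR-302/miR-367 cluster left of the dotted line and the miR-290 cluster right of it. Points are libraries, bars are 95% counting intervals and open symbols are libraries with 0 reads; miR-302d-3p reached 11.8 CPM in female library 1, and miR-367-3p was at 0 in all 6 libraries.

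miR-302b-3p and miR-302d-3p, both carriers of the stem cell seed AAGUGCU, were the only members with reads in all 6 libraries. miR-302d-3p had 175, 175 and 172 reads in female libraries 1, 2 and 3 and 76, 246 and 89 reads in male libraries 1, 2 and 3. As a level this was 11.8, 2.95 and 4.80 CPM in females and 4.07, 5.60 and 3.77 CPM in males. Female library 1 was the highest and female library 2 the lowest of the 6, so the male libraries lay inside the female range.

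miR-302b-3p had 93, 146 and 345 reads in female libraries 1, 2 and 3 and 70, 164 and 81 reads in male libraries 1, 2 and 3. Its level was 6.28, 2.46 and 9.64 CPM in females and 3.75, 3.73 and 3.43 CPM in males. The male libraries were close together, and again female library 2 was the lowest. Their 95% intervals, such as 2.72 to 4.26 CPM in male library 3, overlapped in all pairs of male libraries.

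miR-302a-3p, from the hairpin between those of miR-302c and miR-302d, had 47, 235 and 179 reads in female libraries 1, 2 and 3 and 0, 106 and 19 reads in male libraries 1, 2 and 3. The level was 3.18, 3.96 and 5.0 CPM in females and 0, 2.41 and 0.80 CPM in males. Every female library was above every male library. The 0 of male library 1 allows up to 0.161 CPM (3 reads of its total), a limit below the level in each of the other 5 libraries. No member with reads had fewer than 22 in male library 1, so this limit may be too low.

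miR-302c-3p had 18, 0 and 24 reads in female libraries 1, 2 and 3 and 0, 0 and 27 reads in male libraries 1, 2 and 3. Where it had reads, its level was between 0.67 and 1.22 CPM. The libraries with reads were of both sexes and their levels overlapped.

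miR-367-3p, the cluster's one member outside the miR-302 family and the last hairpin of the cluster, had 0 reads in all 6 libraries. A count of 0 allows up to 0.0505 CPM in the deepest library and up to 0.203 CPM in the shallowest. Over the 6 libraries together, it allows up to 0.0153 CPM. The deepest is female library 2, where no member with reads had fewer than 135, so 0.0505 and 0.0153 CPM may be too low. Among the other libraries the lowest limit was 0.0683 CPM, in male library 2.

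In the miR-290 cluster no member had reads in all 6 libraries. miR-295-3p had the most, with 14, 135 and 139 reads in female libraries 1, 2 and 3 and 22, 18 and 0 reads in male libraries 1, 2 and 3. This was 0.95, 2.27 and 3.88 CPM in females and 1.18, 0.41 and 0 CPM in males. Male library 1 was above female library 1, so the sexes overlapped.

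miR-294-3p, one of the most abundant miRNAs of mouse embryonic stem cells, had 39, 0 and 13 reads in female libraries 1, 2 and 3 and 0, 0 and 17 reads in male libraries 1, 2 and 3. Its highest level was 2.63 CPM, in female library 1. miR-290a-5p had 12, 0 and 49 reads in females and 0, 17 and 0 reads in males. Both had reads in 3 libraries, of both sexes.

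miR-292a-3p had 14, 0 and 61 reads in female libraries 1, 2 and 3 and 0 reads in every male library. Female library 3 had the highest level, at 1.70 CPM, and female library 2, like the males, had none. miR-291a-3p had 12 reads in male library 2 and 0 reads elsewhere.

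By mean level over the 6 libraries the order was miR-302d-3p (5.50 ± 3.23 CPM, SD, n = 6), miR-302b-3p (4.88 ± 2.65 CPM), miR-302a-3p (2.56 ± 1.89 CPM), miR-295-3p (1.45 ± 1.42 CPM), miR-294-3p (0.620 ± 1.03 CPM), miR-302c-3p (0.505 ± 0.584 CPM), miR-292a-3p (0.442 ± 0.725 CPM), miR-290a-5p (0.428 ± 0.563 CPM), miR-291a-3p (0.0455 ± 0.112 CPM) and miR-367-3p at 0. Of these neighbours, only miR-302b-3p and miR-302a-3p differed by more than the spread, with a mean difference within libraries of 2.32 CPM against an SD of 2.18 CPM. All other neighbours differed by no more than the SD of their difference. In level among the 1163 miRNAs with any read, miR-302d-3p ranked 502 and miR-291a-3p ranked 1129. Ligation and amplification favor some miRNA sequences over others, so levels of different miRNAs are compared only coarsely.

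**Figure D2:**
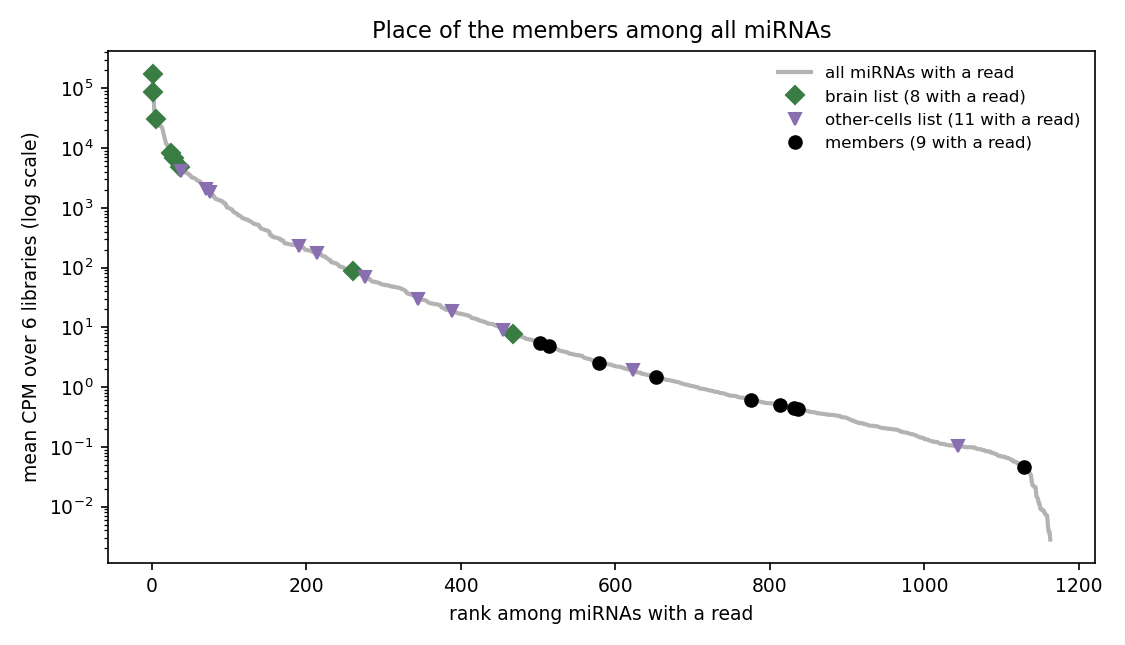
Mean CPM over the 6 libraries (log scale, vertical axis) against rank among the 1163 miRNAs with a read (horizontal axis), with the 9 members that had a read in black, the brain list in green and the list for other cells in purple. The members lie between rank 502 and rank 1129, below 7.67 CPM, the lowest value of the brain list.

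Of the 10 miRNAs, 8, 4 and 8 were detected with at least 1 read in the females, and 3, 6 and 5 in the males, for libraries 1, 2 and 3 in that order. The numbers were the same with a minimum of 10 reads, since no member with reads had fewer than 12. Of the 10, 2 miRNAs had reads in 6 libraries, 2 in 5, 3 in 3, 1 in 2, 1 in 1 and 1 in none. Over all 1915 miRNAs, 29.9% had reads in every library and 39.3% in none. In female library 2 the 4 members detected had 135 to 235 reads and the other 6 had 0, while in the other libraries the lowest member with reads had 12 to 22 reads.

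The miR-302/miR-367 cluster took most of the members' reads in each library, between 73.3% in female library 3 and 92.7% in male library 3. Its members summed to 22.5, 9.37 and 20.1 CPM in female libraries 1, 2 and 3 and to 7.81, 11.7 and 9.14 CPM in male libraries 1, 2 and 3. The miR-290 members summed to 5.34, 2.27 and 7.32 CPM in females and to 1.18, 1.07 and 0.719 CPM in males. For the sum of the miR-290 members every female library was above every male library, although in female library 2 the whole of the sum was miR-295-3p. No single miR-290 member had that order, and 96 of the 1120 miRNAs tested, or 8.57%, had it. Over all listed miRNAs of the miR-290 cluster, female library 2 and male library 2 were level, at 6.84 and 6.76 CPM. For the miR-302/miR-367 members the sexes overlapped through female library 2 alone, and without it the female mean was 21.3 CPM, with both females above every male library.

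Other strands of the same hairpins were measured as well, and the files list 18 further miRNAs of both clusters, of which 8 had at least 1 read. For miR-302b and miR-302d every read was from the 3p strand, with 0 reads on the 5p strand against 899 and 933 on the 3p strand. Both 3p strands carry the stem cell seed. The 3p share was 80.2% for miR-302a, 84.1% for miR-293, 87.3% for miR-294 and 97.3% for miR-295. For miR-302c the files held 74 reads of 5p and 69 reads of 3p, which came mostly from different libraries. Only female library 3 had both strands, with 30 reads of 5p and 24 of 3p, while female library 1 and male library 3 had the 3p strand alone and male library 2 the 5p strand alone. Its mean level was 0.31 CPM for 5p and 0.50 CPM for 3p.

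At the 5′ end of the miR-290 cluster the 5p strand held most reads. miR-290a had reads from the 5p strand alone, with 78 reads. The 3p share was 11.7% for miR-291a, whose 3p reads were all in male library 2, and 12.3% for miR-292a. For miR-292a this share was 22.1% without female library 2, which had 271 reads of 5p and none of 3p, and 3.04% without female library 3. The 2 libraries with 3p reads, female libraries 1 and 3, had 3p shares of 34.1% and 40.7%. miR-292a-5p, at 27, 271 and 89 reads in female libraries 1, 2 and 3 and 41, 107 and 0 reads in male libraries 1, 2 and 3, was the most abundant miRNA of the cluster, with a mean of 2.25 CPM. Next were miR-295-3p at 1.45 CPM and miR-293-3p at 1.31 CPM, an order that turned without female library 2, to 1.28 and 1.57 CPM. Hence the 5 members from the miR-290 cluster held 37.5% of the cluster's 1497 reads, whereas the 5 from the miR-302/miR-367 cluster held 91.9% of 2706 reads. By library, the miR-290 share ran from 15.8% in male library 2 to 55.9% in female library 3. The miR-302/miR-367 share ran from 86.6% in male library 2 to 100% in female library 2 and male library 3.

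**Figure D3:**
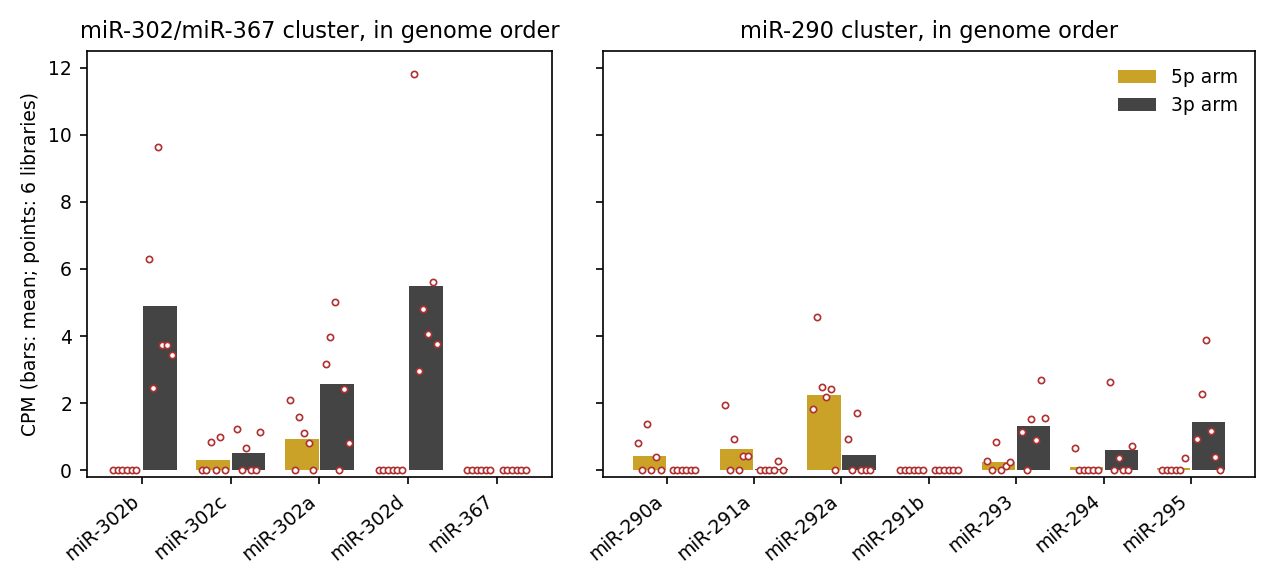
Mean CPM of the 5p strand (yellow bars) and the 3p strand (black bars) of each hairpin, in genome order, with the 6 libraries as open points. In the miR-302/miR-367 cluster the 3p strands of miR-302b and miR-302d had all the reads, and in the miR-290 cluster the 5p strand was higher for miR-290a, miR-291a and miR-292a.

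Seeds related the members to the rest of the library. All 5 miRNAs with the seed AAGUGCU, among the 1623 listed miRNAs matched to a RefSeq sequence, were members. miR-302a-3p and miR-292a-3p are not in these sums. The 5 summed to 21.7, 7.68 and 18.7 CPM in female libraries 1, 2 and 3 and to 8.99, 10.02 and 7.91 CPM in male libraries 1, 2 and 3. miR-302c-3p was alone with its seed.

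The seed AUUGCAC of miR-367-3p was carried by 5 other miRNAs at far higher levels. These were miR-92a-3p (mean 38461 CPM), miR-25-3p (12247 CPM), miR-92b-3p (7073 CPM), miR-363-3p (123 CPM) and miR-32-5p (7.94 CPM), and together they made up between 37557 and 72750 CPM per library. Thus this seed was abundant in the brain while miR-367-3p had no read. The seed CUCAAAC of miR-290a-5p was carried besides it only by miR-292a-5p and miR-293-5p, which are of the same cluster, and the 3 together had a mean of 2.93 CPM.

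The 6 bases AAGUGC lie at bases 2 to 7 of the AAGUGCU seed, and the miR-17 family, whose members act in many proliferating tissues, holds them at bases 3 to 8. Of the miRNAs with a sequence, 19 held these 6 bases within the first 9, on the given strand, and 6 of the 19 were members. miR-93-5p was the most abundant at a mean of 5940 CPM, followed by miR-20a-5p (536 CPM), miR-106b-5p (503 CPM) and miR-17-5p (398 CPM). miR-350-5p, which is outside both clusters, held the 6 bases at bases 2 to 7, at a mean of 48.5 CPM. These 6 members, which do not include miR-302a-3p, made up between 0.0988% and 0.310% of the reads of these 19 miRNAs in a library. A shared run of letters is a description of the sequences and no measure of shared targets.

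**Figure D4:**
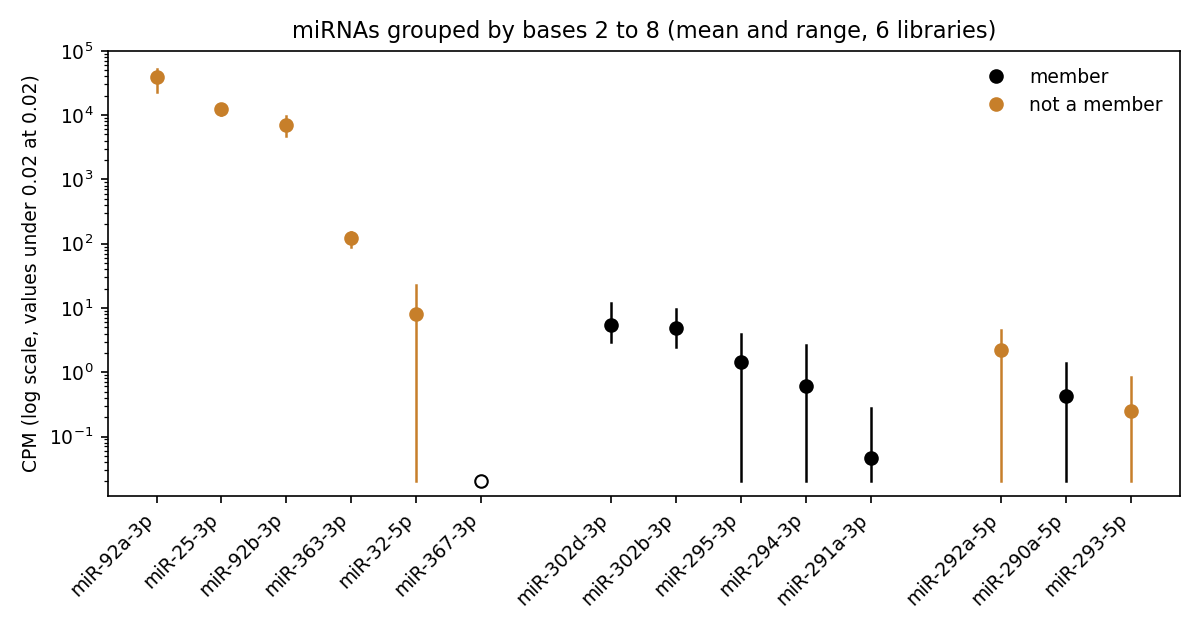
CPM (log scale, vertical axis) of miRNAs grouped by identical bases 2 to 8, with the seed of miR-367-3p at left, AAGUGCU in the middle and the seed of miR-290a-5p at right. Points are means and bars the range over 6 libraries, members are black and values under 0.02 CPM are drawn at 0.02; miR-92a-3p had a mean of 38461 CPM, and miR-367-3p was at 0 (open point).

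The sexes were compared to ask whether any of these miRNAs was sex-biased in the fetal brain. The quasi-likelihood test of edgeR, with Benjamini-Hochberg adjusted p-values, was fitted over the 1120 miRNAs with at least 10 reads in sum and called 95 miRNAs, or 8.48%, at an adjusted p below 0.05, of which 36 were higher in males and 59 in females. Of the 10 members 9 were tested, and none was called. None of the 9 had an unadjusted p below 0.05 either, whereas 206 of all 1120 did. Without female library 2, edgeR called 203 of 1110 miRNAs and again no member. The unadjusted p of miR-292a-3p was then 0.0227 (edgeR adjusted p = 0.103). DESeq2 called 132 of 1120 miRNAs, or 11.8%. Among the members it gave an adjusted value only for miR-302b-3p and miR-302d-3p, and called neither. It left the other tested members empty, so whether they would pass after adjustment cannot be read from this fit. Before adjustment only miR-292a-3p fell below 0.05, and it was among those left empty. Scaling by library size in place of edgeR's TMM turned the split over all miRNAs to 50 higher in males and 39 in females and called no member.

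Among the miR-302/miR-367 members the log2 fold change, male over female, was -1.95 for miR-302a-3p (SE 1.54, edgeR adjusted p = 0.485), -0.85 for miR-302b-3p (SE 0.96, adjusted p = 0.686), -0.77 for miR-302c-3p (SE 3.30, adjusted p = 0.945) and -0.61 for miR-302d-3p (SE 0.91, adjusted p = 0.794). The values for miR-302c-3p and miR-302d-3p changed sign when female library 1 was left out. With all 6 libraries, miR-302a-3p was the only member with every female library above every male library. Over the 1120 miRNAs tested, 96, or 8.57%, had that order. Without female library 2 this held for 4 members, miR-302a-3p, miR-302b-3p, miR-290a-5p and miR-292a-3p, beside 212 of 1110 miRNAs, or 19.1%.

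Among the miR-290 members the log2 fold change was -2.36 for miR-295-3p (SE 2.03, edgeR adjusted p = 0.524), -2.08 for miR-294-3p (SE 3.24, adjusted p = 0.798) and -2.40 for miR-290a-5p (SE 3.49, adjusted p = 0.792). Each standard error was close to or larger than the change itself. The value for miR-294-3p changed sign without female library 1. For miR-292a-3p, at 0 in every male library, the pooled female level was 19.6-fold above a floor of 3 reads over the males (edgeR adjusted p = 0.334). Such a bound covers counting in the group at 0 and not the spread between pools. It also rests on the limit from 3 reads, and where that limit is too low the bound is too high. Of the 75 reads of miR-292a-3p, 61 were in female library 3. The bound was 5.43-fold without that library, 42.6-fold without female library 2 and 9.62-fold without male library 2. For miR-291a-3p, at 0 in every female library, the pooled male level was 5.10-fold above the floor on the same basis. It came from 12 reads of 1 library (edgeR adjusted p = 0.519). That bound was 2.35-fold without female library 2 and 3.44-fold without female library 3, and there was none without male library 2.

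In total 8 of the 9 fitted changes were below 0, against 50.9% of all miRNAs tested, and their median was -1.95 on the log2 scale, against -0.02 over all. The median stayed at -1.95 with miR-291a-3p and miR-292a-3p at their bounds. Without female library 1, 5 of the 9 were below 0, against 46.6% of all, and the median was -0.83, against 0.12 over all. Since members of one cluster are processed from shared transcripts, they are not independent counts of a direction, and no member's change passed the test.

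Some markers of other cells and of brain differed between the sexes, in a fit that called 8.48% of the 1120 miRNAs tested. Of the 14 miRNAs for other cells 11 were tested, and 2 were higher in males and 2 in females by edgeR's test. miR-206-3p of skeletal muscle was between 122 and 382 CPM in females and between 3534 and 4229 CPM in males (log2 fold change 4.02, SE 0.31, edgeR adjusted p = 1.2e-09). miR-205-5p of epithelium was between 39.3 and 177 CPM in females and between 3401 and 3799 CPM in males (log2 fold change 5.04, SE 0.35, edgeR adjusted p = 2.5e-10). Higher in females were miR-126a-3p of endothelium (log2 fold change -0.91, SE 0.25, edgeR adjusted p = 0.0172) and miR-217-5p of pancreas (log2 fold change -0.90, SE 0.21, edgeR adjusted p = 0.00631).

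The list for other cells summed to between 4383 and 8653 CPM in females and between 10073 and 12015 CPM in males, with 3 of its miRNAs, for heart and testis germ cells, at 0. The brain list summed to between 317049 and 340771 CPM in females and between 274437 and 303693 CPM in males, with 3 of its 8 miRNAs, miR-9-3p, miR-137-3p and miR-218-5p, higher in females. The part of these lists in the members' values was not tested.

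**Figure D5:**
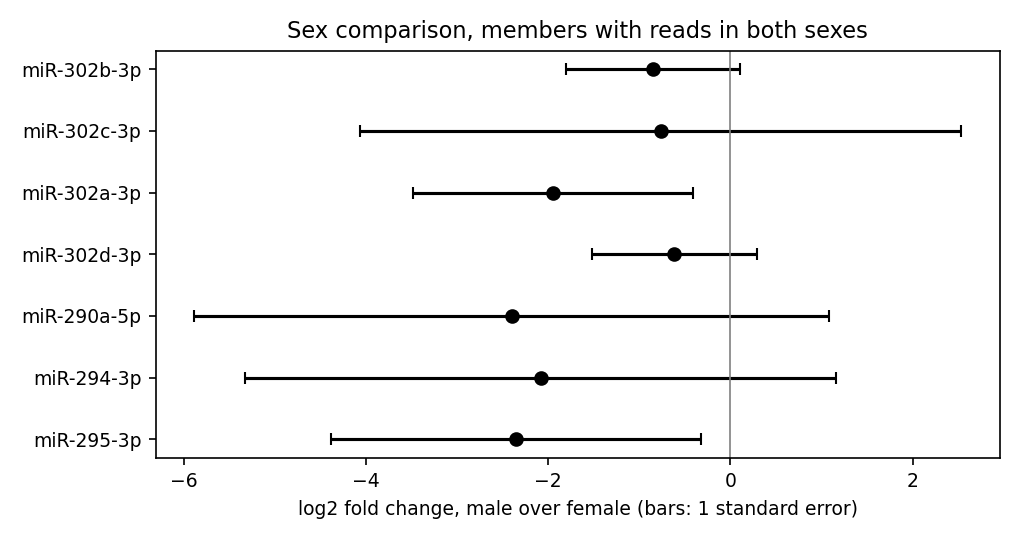
Log2 fold change, male over female (horizontal axis), of the 7 members with reads in both sexes. Bars are 1 standard error, derived from the F statistic of edgeR's quasi-likelihood test. All 7 values lie below 0, between -0.61 and -2.40, none passed the test, and those of miR-302c-3p, miR-302d-3p and miR-294-3p rise above 0 without female library 1.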

How the data were processed

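The 6 small RNA libraries were made from whole brain RNA, 3 per sex. The authors deposited raw counts of reads per mature miRNA, without normalization, which they made with cutadapt 1.15 and Bowtie 1.2.1 (versions from the submitters' processing notes) and miRDeep2, using miRBase sequences and mm9. Library totals were the sums of these counts.

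The rule for the 10 miRNAs names them and uses no measured value, but the rule and all lists were written with earlier results of these data known. Counts were scaled by TMM, miRNAs with fewer than 10 reads over the 6 libraries were left out, and sex was tested with edgeR 4.0.16 (glmQLFTest) in R 4.3.3, with Benjamini-Hochberg adjustment over all 1120 miRNAs tested and a threshold of 0.05. An exact permutation test of a single miRNA cannot go below p = 0.1 at 3 against 3, so none was run. Alternatives were library size and upper quartile scaling, DESeq2 1.42.0, 1 RUVr factor in DESeq2 and in edgeR, other filters, a replicate block, and leaving out each library. The authors used DESeq2 with RUVr, and RUVr was rewritten here from edgeR residuals. The fits were tested on simulated data. The error of the fold change was checked there only above a mean of 10 CPM, a level that no member reached. Adjusted p-values that DESeq2 leaves empty were kept empty.

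Named miRNAs were the 10 members, the other miRNAs of their clusters, up to 5 miRNAs per shared seed, the lists for brain and other cells, and, for members that reached 10 reads in all 6 libraries, the 3 miRNAs nearest in pattern. The carriers of AAGUGC were chosen after their values were seen. Mature sequences (RefSeq, GRCm38.p6) matched 1623 of the 1915 names, or 84.8%. Hairpin coordinates are from GENCODE vM1 on NCBIM37, which is mm9.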

Additional observations from a re-analysis of the deposited data

How the results depend on the processing

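No member passed the threshold in any of 118 fits of a member under an alternative, with adjusted p from 0.103 to 1.0 and 8 left empty by DESeq2. The log2 fold change kept its sign in 115 of them and reversed in 3, all without female replicate 1, to 0.32 for miR-294-3p, 0.11 for miR-302c-3p and 0.12 for miR-302d-3p, with lowest values of -8.05, -7.39 and -0.93 when another library was left out. The count of sex-biased miRNAs among all tested was 225 with DESeq2 and 1 RUVr factor, 147 with edgeR and 1 RUVr factor, and 30 (without male replicate 1) to 203 (without female replicate 2) with 1 library left out, 60 without female replicate 3; the causes were not tested. With a block for the replicate number it was 92, with 0 members called. Same-numbered libraries did not deviate together over all miRNAs tested (r = -0.05, -0.01 and 0.05). The labels give them no more than a shared number, and a shared litter or batch was not tested. With at least 10 reads in every library, 97 of 550 miRNAs were called and 2 members were left to test.

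The members' summed level was 45.9 CPM in females and 21.2 CPM in males with the 10 most abundant miRNAs left out of the total, 6.08 CPM in males without miR-302d-3p, and 15.3 CPM in males over all miRNAs of both clusters. With 1 library left out it was 19.5 to 27.6 CPM in females and 9.43 to 11.3 CPM in males. Members made up 100% of the reads with the seed AAGUGCU and 0.176% of those found when AAGUGC was counted anywhere in the first 9 bases, an alternative chosen after seeing the data, as were the strand shares, bounds, orders and medians without 1 library. Without female replicate 2, the mean of miR-295-3p less that of miR-293-3p turned from 0.14 to -0.29 CPM. A count of 0 allows up to 0.0505 to 0.203 CPM at these depths, so lower levels cannot be seen. The 0.0505 CPM is that of female library 2, where a limit from 3 reads may be too low. In the other libraries it may be too low as well, since the 10th percentile of reads over detected miRNAs was 11 to 21.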

Other observations

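By the root mean square distance of centered log2 CPM over the 6 libraries, with 552 miRNAs compared, the pattern of miR-302b-3p was nearest to those of miR-136-3p, miR-873a-5p and miR-872-3p, each at 0.20, against a spread of miR-302b-3p itself of 0.63. For miR-302d-3p, whose own spread was 0.62, the nearest were miR-182-5p (0.32), miR-664-3p (0.34) and miR-297a-3p (0.35). These are descriptions over 6 libraries, and all miRNAs of a library share its depth and its pool.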
